A study of Arabidopsis thaliana with 2 samples.

Results

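Growth-regulating factors (GRFs) and their partners, the GRF-INTERACTING FACTORs (GIFs), were examined in early globular embryos of Arabidopsis thaliana. The 10 genes were chosen by gene identifier: the miR396-targeted GRF1, GRF2, GRF3, GRF7 and GRF9, the untargeted GRF5 and GRF6, and GIF1 (also named ANGUSTIFOLIA3 or AN3), GIF2 and GIF3. Of these 10, 9 had a row among the 20612 loci of the table, and GRF6 (AT2G06200) was not analysed here. GRF4 and GRF8, which complete the family of 9 GRF genes, are given beside the members.

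The study compared 2 poly(A) RNA libraries, 1 of dcl1-5 embryos and 1 of wild-type Col-0 embryos, each from 30 hand-dissected embryos pooled at the early globular stage. For both libraries, plants had 16 hours of light and 8 hours of dark. The dcl1-5 allele affects DICER-LIKE1 (DCL1), which releases microRNAs (miRNAs) from their precursors, and its name is the labels' only description of the line. RNA went through 2 rounds of linear amplification, and with 1 library per genotype replicate error is unknown and no p-value was computed.

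GRFs are plant transcription factors with a QLQ domain, which binds GIF proteins, and a WRC domain, which binds DNA. GIFs bind no DNA themselves. They act as coactivators that bring SWI/SNF chromatin remodellers to the genes that GRFs bind. The module promotes cell proliferation in leaves, cotyledons and meristems, and plants lacking several GRFs have small leaves and fused cotyledons. miR396 pairs with most GRF mRNAs inside the part that encodes the WRC domain and lowers their levels, which restricts GRF activity to young, dividing cells.

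The mature miRNAs and the sites they pair with are shown because they set the targeted and untargeted genes apart. Both sequences are from the RefSeq annotation and genome of TAIR10.1, 5′ to 3′, with the seed (bases 2 to 8) in capitals. miR396a-5p lies at chr2:4142443-4142463 on the minus strand in MIR396a (AT2G10606), and miR396b-5p at chr5:13611808-13611828 on the plus strand in MIR396b (AT5G35407). The MIR396 loci themselves were not analysed here.
miR396a-5p: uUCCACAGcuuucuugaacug
miR396b-5p: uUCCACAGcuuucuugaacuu

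All 7 targeted GRFs carried a 21-base site within 1 coding exon, in frame. The site began at coding base 697 in GRF1, 790 in GRF2, 541 in GRF3, 562 in GRF4, 430 in GRF7, 838 in GRF8 and 376 in GRF9, counted from the A of the start codon in the gene model with the longest coding sequence. Capitals mark the bases that all 7 sites share, and the lower-case letter is base 14, counted from the 5′ end, the only base that varies. In GRF7 and GRF8 base 14 has no partner in the miRNA. In the other sites base 14 is the same as a base next to it, and either of them can be the one without a partner. Bases 1 to 19 of miR396a pair with each site without a mismatch once base 14 is left out.
GRF1, chr2:9729945-9729965, plus strand: CGTTCAAGAAAGCcTGTGGAA
GRF2, chr4:17726404-17726424, minus strand: CGTTCAAGAAAGCcTGTGGAA
GRF3, chr2:15271745-15271765, minus strand: CGTTCAAGAAAGCcTGTGGAA
GRF7, chr5:21795146-21795166, plus strand: CGTTCAAGAAAGCaTGTGGAA
GRF9, chr2:18746293-18746313, plus strand: CGTTCAAGAAAGCtTGTGGAA
GRF4, chr3:19617293-19617313, minus strand: CGTTCAAGAAAGCcTGTGGAA
GRF8, chr4:12538650-12538670, plus strand: CGTTCAAGAAAGCaTGTGGAA

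The sites of GRF1, GRF2, GRF3 and GRF4 were identical, those of GRF7 and GRF8 differed from them by C14A, and that of GRF9 by C14T. Written with N at base 14, CGTTCAAGAAAGCNTGTGGAA was found on the sense strand in 7 of 27444 nuclear coding sequences (0.0255%), all of them these GRFs. The complement of the seed alone, CTGTGGA, occurred in 11.1% of coding sequences. It reads across base 14 where that base is C, and in GRF7, GRF8 and GRF9 the site interrupts it. In GRF5 the in-frame stretch most like the site of GRF1 had 14 of 21 bases in common with it. It lies at chr3:4609156-4609176 on the plus strand.
GRF5: cgtgccagaaaatctcttgat

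In GRF6 the best in-frame stretch had 12 identical bases, and in GIF1, GIF2 and GIF3 it had 12, 11 and 12.

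**Figure D1:**
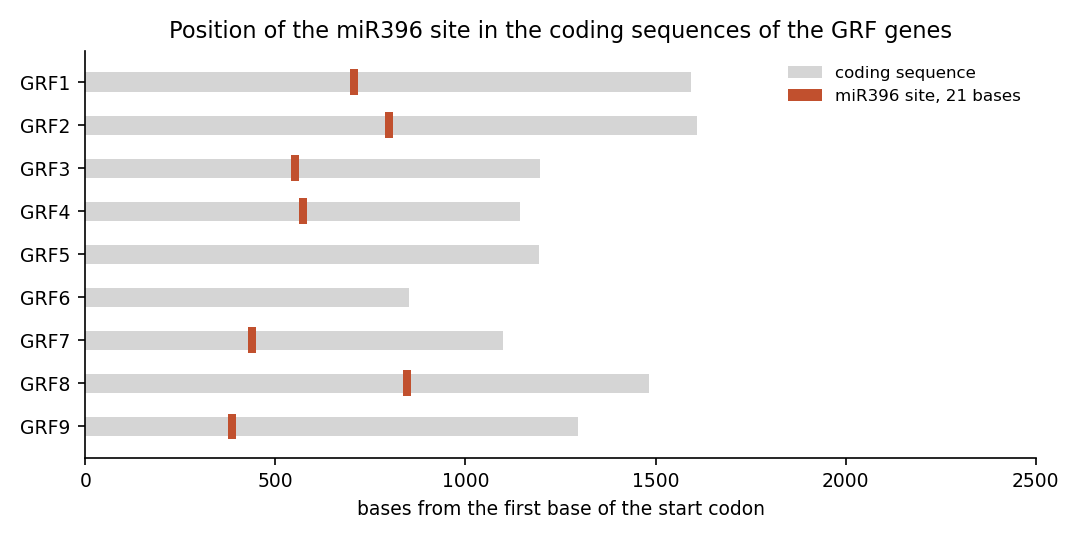
Coding sequences of the 9 GRF genes (grey bars, in bases from the start codon) with the 21-base miR396 site (red). The site starts between coding bases 376 (GRF9) and 838 (GRF8) in 7 genes and is absent from GRF5 and GRF6.

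The values are RPM, reads per 1000000 genome-matching reads of the library, from 4513588 such reads in dcl1-5 and 5611643 in wild type. One read stood for 0.222 RPM in dcl1-5 and 0.178 RPM in wild type, and 3 reads, taken as the floor, for 0.665 RPM in dcl1-5 and 0.535 RPM in wild type. Values in square brackets are exact 95% intervals (Poisson for levels, Clopper-Pearson for shares and ratios). They cover counting error only, since amplified reads are not independent molecules. DCL1 (AT1G01040) itself had 3 reads, or 0.665 RPM, in dcl1-5 and 26 reads, or 4.63 RPM, in wild type, and AT1G01046 overlaps it on the same strand. The defining embryo markers were present in both libraries, with 7 of 7 above 0 and a sum of 711.4 RPM in dcl1-5 and 550.5 RPM in wild type. The homeobox genes WOX8 and WOX9 were 3.78-fold and 3.36-fold higher in dcl1-5, and the other 5, LEC1 among them, were within 2-fold on the log2 scale defined below. Markers of the seed coat summed to 391.0 RPM over 10 genes in dcl1-5 and 198.2 RPM in wild type, and none was at 0. Those of the endosperm summed to 58.9 RPM over 7 genes in dcl1-5 and 29.6 RPM in wild type, with AGL36 at 0 in wild type. FIS2, FWA and SUC5 carried the difference in the endosperm sum, whereas MEA, AGL62 and ZOU, with 1 to 15 reads per library, were lower in dcl1-5. Among markers whose mean reached 5 RPM, 2 of 7 for the embryo, 4 of 7 for the seed coat and 1 of 3 for the endosperm were at least 2-fold higher in dcl1-5, as were 33.8% of all genes at that level. Their part in the values below was not tested.

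GRF2 and GRF3 were lower in dcl1-5 and GRF1 was higher, so the GRFs did not move as a group. The 8 GRF genes with a row summed to 331 reads, or 73.3 RPM, in dcl1-5 and to 840 reads, or 149.7 RPM, in wild type, 2.04-fold lower [1.80 to 2.33]. On the deposited RPM scale that difference rests on GRF2, which was left out after the values were seen. Without it the other 7 genes summed to 240 reads, or 53.2 RPM, in dcl1-5 and to 307 reads, or 54.7 RPM, in wild type. The ratio was 0.972 [0.817 to 1.15], a sum in which GRF1 was higher and GRF3 lower. The 3 GIF genes summed to 774 reads, or 171.5 RPM, in dcl1-5 and to 923 reads, or 164.5 RPM, in wild type, a ratio of 1.04 [0.946 to 1.15]. With TMM scaling, which removes a shift towards higher values shared by most genes (described with the background), these last ratios were 0.610 [0.513 to 0.725] for the GRFs without GRF2 and 0.654 [0.594 to 0.721] for the GIFs. In these pooled embryos, fewer cells of a type and less RNA per cell cannot be told apart.

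Of the 9 members with a row, 7 reached 5 RPM on average over both libraries and were compared by the log2 ratio, log2((dcl1-5 RPM + 1) / (wild-type RPM + 1)). By this measure 3 members, GRF2, GRF3 and GIF3, were at least 2-fold lower in dcl1-5, whereas 4.58% of the 10240 genes that passed the same filter were. GRF1 was the 1 member at least 2-fold higher, in a background where 33.8% of genes were. GRF9, GIF1 and GIF2 lay between these limits. The median log2 ratio of the 7 members was -0.21, and that of all 10240 genes was 0.63. Most genes were therefore higher in dcl1-5 on the authors' scale. With TMM scaling, under which the median of all genes was 0.00, 0 members were at least 2-fold higher against 15.0% of all genes, and the same 3 were at least 2-fold lower against 14.5%.

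GRF2 (AT4G37740), which promotes leaf and cotyledon growth together with GRF1 and GRF3, was the most abundant GRF in wild type and had the largest difference of the members. It had 91 reads, or 20.2 RPM [16.2 to 24.8], in dcl1-5 and 533 reads, or 94.98 RPM [87.1 to 103.4], in wild type. That is 4.71-fold lower in dcl1-5 [3.77 to 5.95], and the intervals of the levels do not overlap. On the log2 scale the difference was -2.18, and 0.645% of the genes tested had a smaller value. The tenth of genes with similar mean RPM had a median log2 ratio of 0.55.

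GRF3 (AT2G36400) followed GRF2. Its 50 reads in dcl1-5 gave 11.1 RPM [8.22 to 14.6] and its 167 reads in wild type gave 29.8 RPM [25.4 to 34.6], so the dcl1-5 level was 2.69-fold lower [1.95 to 3.76]. The intervals are again apart, and 2.41% of tested genes had a smaller log2 ratio than its -1.35. GRF3 overlaps annotated genes on the opposite strand, as do GRF1, GRF7, GRF9, GIF2 and GIF3, and the authors counted reads by strand. No member overlaps a gene on its own strand in TAIR10.1.

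GRF1 (AT2G22840) went the other way, although its site is base for base that of GRF2 and GRF3. It had 129 reads, or 28.6 RPM [23.9 to 34.0], in dcl1-5 and 71 reads, or 12.7 RPM [9.88 to 16.0], in wild type, 2.26-fold higher [1.68 to 3.06]. Its log2 ratio of 1.12 exceeded that of 70.0% of tested genes, so many genes differed by as much or more. The genes of similar abundance had a median of 0.68. With TMM scaling the log2 ratio of GRF1 was 0.48, short of 2-fold, with the sign kept.

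GRF9 (AT2G45480), known to restrain leaf growth rather than promote it, had 8.20 RPM [5.77 to 11.3] in dcl1-5 and 9.62 RPM [7.23 to 12.6] in wild type. The intervals overlap, and the ratio of 0.852 [0.545 to 1.32] includes equality on the authors' scale. It depended on the scaling, at 0.611 [0.391 to 0.945] with median-of-ratios scaling and 0.535 [0.342 to 0.827] with TMM, both of which lie below equality. GRF7 (AT5G53660), a repressor of the drought-response gene DREB2A, had 0 reads in dcl1-5 and 1 in wild type. Both are under the floor of 3 reads, so levels up to 0.665 RPM in dcl1-5 and 0.535 RPM in wild type cannot be seen.

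Of the GRFs outside the list, GRF4 (AT3G52910), also active in cotyledon and leaf growth, had 20 reads, or 4.43 RPM, in dcl1-5 and 10 reads, or 1.78 RPM, in wild type. Its ratio of 2.49 [1.11 to 5.95] is above equality on counting error on the authors' scale, with a mean under 5 RPM. The log2 ratio of GRF4 was 0.97 on that scale and 0.47 with TMM. GRF8 (AT4G24150) had 0 reads in dcl1-5 and 2 in wild type, both under the floor.

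GRF5 (AT3G13960), the untargeted GRF that drives leaf cell division, was close to the limit of detection. It had 4 reads, or 0.886 RPM [0.241 to 2.27], in dcl1-5 and 2 reads, or 0.356 RPM [0.0432 to 1.29], in wild type. The ratio of 2.49 has an interval of 0.356 to 27.5, so neither a difference nor its absence can be read from it. The targeted GRFs could therefore not be set against an untargeted one.

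**Figure D2:**
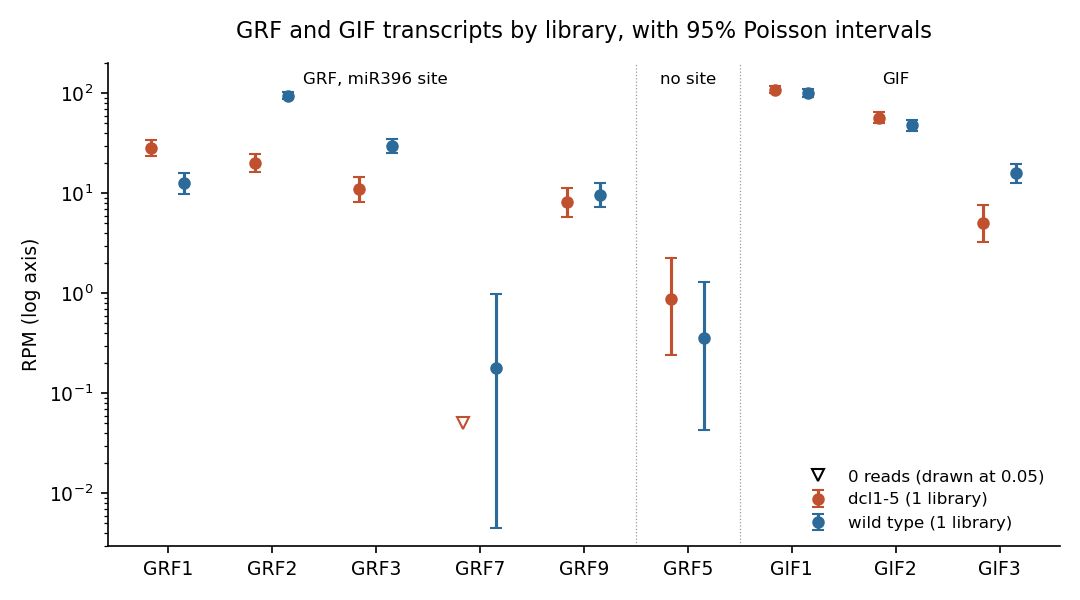
RPM of each member (log axis) in the dcl1-5 library (red, left) and the wild-type library (blue, right), with exact 95% Poisson intervals and an open triangle for 0 reads. The intervals are apart for GRF1, GRF2, GRF3 and GIF3, and they overlap for GRF7, GRF9, GRF5, GIF1 and GIF2.

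Among the coactivators, GIF1 (AT5G28640), which drives cell proliferation in leaf primordia and supports cotyledon identity in the embryo, was the most abundant member in both libraries. It had 493 reads, or 109.2 RPM [99.8 to 119.3], in dcl1-5 and 566 reads, or 100.9 RPM [92.7 to 109.5], in wild type. The ratio of 1.08 [0.958 to 1.22] includes equality on the authors' scale. It lies below equality at 0.777 [0.687 to 0.878] with median-of-ratios scaling and 0.680 [0.601 to 0.768] with TMM. GIF2 (AT1G01160), which overlaps with GIF1 in function, had 258 reads, or 57.2 RPM [50.4 to 64.6], in dcl1-5 and 268 reads, or 47.8 RPM [42.2 to 53.8], in wild type. Its ratio was 1.20 [1.005 to 1.43], against 0.858 [0.721 to 1.02] with median-of-ratios scaling and 0.751 [0.631 to 0.895] with TMM. The sign of both depended on the scale: the log2 ratios were 0.11 for GIF1 and 0.25 for GIF2 as deposited, but -0.36 and -0.22 with median-of-ratios scaling and -0.55 and -0.41 with TMM.

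GIF3 (AT4G00850), the third and least abundant GIF, stood apart from the other two. It had 23 reads, or 5.10 RPM [3.23 to 7.65], in dcl1-5 and 89 reads, or 15.9 RPM [12.7 to 19.5], in wild type, 3.11-fold lower [1.95 to 5.16]. The 2 intervals do not overlap, and 1.97% of tested genes had a smaller log2 ratio than its -1.47. GIF3 has no miR396 site of the GRF type.

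**Figure D3:**
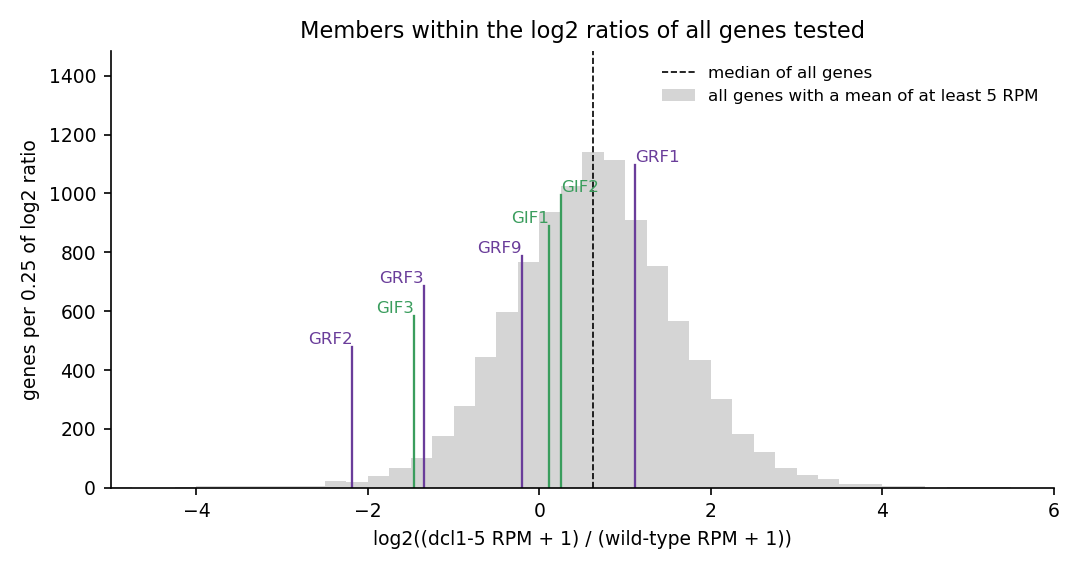
Log2 ratios of the 10240 genes that reached a mean of 5 RPM (grey histogram, genes per 0.25), with the 7 members that passed the filter as lines (purple GRF, green GIF; line height has no meaning). GRF2, GIF3 and GRF3 lie in the lower tail, and only GRF1 lies above the median of 0.63 (dashed).

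**Figure D4:**
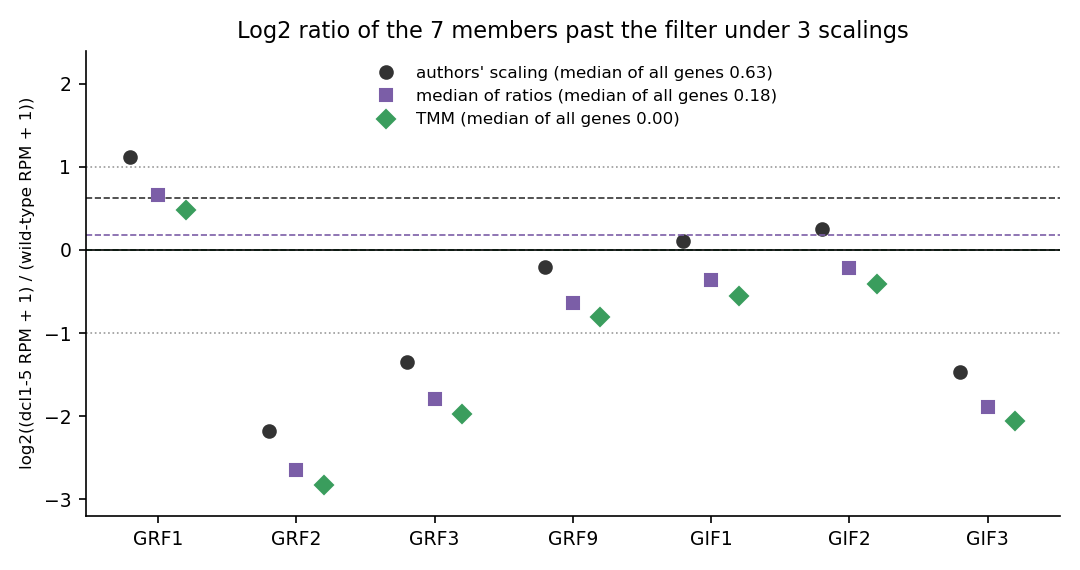
Log2 ratio of the 7 members under the authors' scaling, median-of-ratios and TMM, with the median of all genes under each (dashed lines; the TMM median is at 0) and the 2-fold limits (dotted). GRF2, GRF3 and GIF3 are below -1 under all 3 scalings, GRF1 is above 0 under all 3, and GIF1 and GIF2 change sign.

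The make-up of each family within a library does not depend on how the libraries are scaled. GRF2 held 27.5% [22.8 to 32.6] of the 331 GRF reads in dcl1-5 and 63.5% [60.1 to 66.7] of the 840 in wild type. GRF1 held 39.0% [33.7 to 44.5] in dcl1-5 and 8.45% [6.66 to 10.5] in wild type. GRF1 was thus the leading GRF by reads in dcl1-5, and GRF2 in wild type.

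Per read of GRF2 there were 1.42 reads of GRF1 [1.08 to 1.87] in dcl1-5 and 0.133 [0.102 to 0.171] in wild type, a 10.6-fold difference. GRF3 and GRF2, by contrast, were both lower in dcl1-5 by their RPM, GRF2 by more. Reads of GRF3 per read of GRF2 were 0.549 [0.381 to 0.784] in dcl1-5 and 0.313 [0.262 to 0.373] in wild type, a 1.75-fold difference. GRF3 held 15.1% [11.4 to 19.4] of GRF reads in dcl1-5 and 19.9% [17.2 to 22.7] in wild type, with overlapping intervals. GRF9 held 11.2% [7.99 to 15.1] in dcl1-5 and 6.43% [4.87 to 8.30] in wild type, also overlapping. GRF4 held 6.04% [3.73 to 9.18] in dcl1-5 and 1.19% [0.572 to 2.18] in wild type.

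Among GIF reads, GIF1 held 63.7% [60.2 to 67.1] in dcl1-5 and 61.3% [58.1 to 64.5] in wild type, and GIF2 held 33.3% [30.0 to 36.8] in dcl1-5 and 29.0% [26.1 to 32.1] in wild type. GIF3 held 2.97% [1.89 to 4.43] in dcl1-5 and 9.64% [7.82 to 11.7] in wild type, and its intervals are apart. Across the module there were 0.428 GRF reads per GIF read [0.375 to 0.487] in dcl1-5 and 0.910 [0.828 to 1.0003] in wild type. This difference too rests on GRF2, without which there were 0.310 GRF reads per GIF read [0.267 to 0.359] in dcl1-5 and 0.333 [0.291 to 0.379] in wild type.

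**Figure D5:**
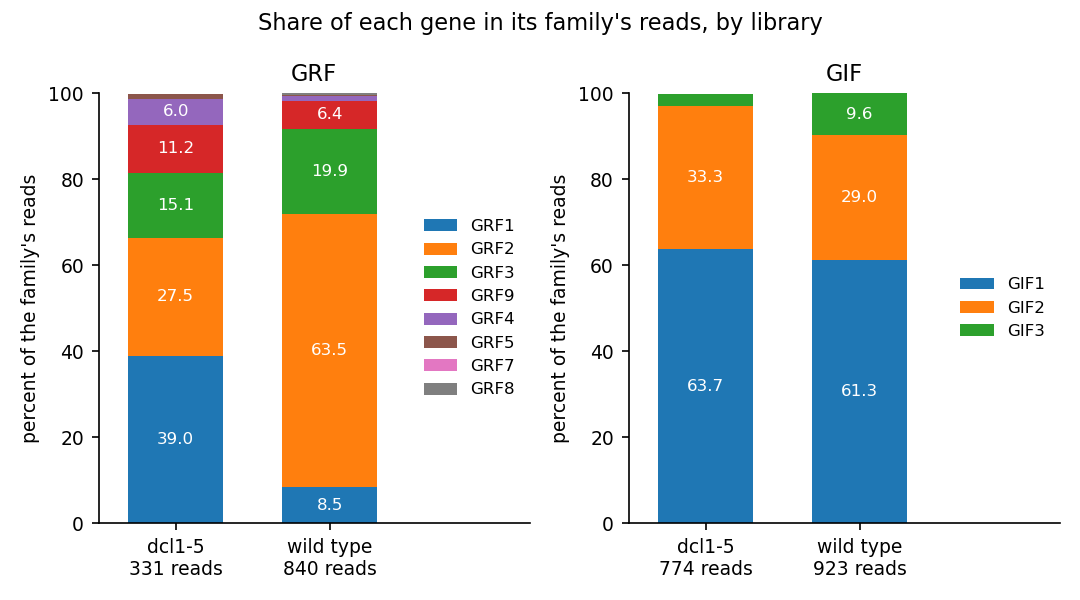
Percent of all GRF reads (left panel, 8 genes) and of all GIF reads (right panel, 3 genes) held by each gene in the dcl1-5 and wild-type libraries. GRF1 and GRF2 exchange the leading place, at 39.0% and 27.5% in dcl1-5 and 8.45% and 63.5% in wild type, and GIF3 is smaller in dcl1-5.

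To compare genes with each other, RPM was divided by the length of the TAIR10.1 transcript in kilobases. Amplification from poly(A) favours 3′ ends, so these levels are approximate. In dcl1-5 the order was GIF1 with 75.9 RPM per kb, GIF2 with 50.6, GRF1 with 13.5, GRF2 with 9.58, GRF3 with 5.81, GRF9 with 4.65, GIF3 with 3.61, GRF5 with 0.447 and GRF7 at 0. In wild type it was GIF1 with 70.1 RPM per kb, GRF2 with 45.1, GIF2 with 42.3, GRF3 with 15.6, GIF3 with 11.2, GRF1 with 5.98, GRF9 with 5.46, GRF5 with 0.180 and GRF7 with 0.104. Counting intervals of these neighbours overlap for GRF1 and GRF2, GRF3 and GRF9, GRF9 and GIF3, and GRF5 and GRF7 in dcl1-5. In wild type they overlap for GRF2 and GIF2, GRF3 and GIF3, GRF1 and GRF9, and GRF5 and GRF7. The longest identical stretch between transcripts of any 2 genes of the module was 30 bases, in GRF1 and GRF2. Reads that lie within it cannot be assigned to either gene by unique mapping. Longer stretches with mismatches, of which the mapping allowed up to 2 over the read seed, were not searched for.

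The wider pathway was described from lists of genes. BHLH74 (AT1G10120), a bHLH factor and the miR396 target outside the GRF family, had 17.9 RPM in dcl1-5 and 18.0 RPM in wild type, a ratio of 0.997 [0.735 to 1.35], or 0.626 [0.461 to 0.847] with TMM scaling. TCP factors of the CIN class, of which TCP4 is known to activate MIR396 and lower GRFs in leaves, had 2 of 3 tested members at least 2-fold higher and 0 lower, against 33.8% and 4.58% of all genes. TCP4 (AT3G15030) had 64.9 RPM in dcl1-5 and 5.35 RPM in wild type, 12.1-fold higher [8.33 to 18.3]. TCP3 (AT1G53230) was 4.004-fold higher, and TCP2 (AT4G18390) had a ratio of 1.77. The TCP genes are themselves targets of another miRNA, miR319.

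The SWI/SNF subunits through which GIFs act had a median log2 ratio of 0.75, near the 0.63 of all genes, with 3 of 11 at least 2-fold higher and 0 lower, against 33.8% and 4.58% of all genes. SWI3B (AT2G33610), a core subunit, had 10.9 RPM in dcl1-5 and 1.96 RPM in wild type, 5.54-fold higher [2.84 to 11.8]. The ATPase SYD (AT2G28290) was 3.32-fold higher [2.53 to 4.41] and SWP73A (AT3G01890) 2.62-fold [1.48 to 4.78]. With TMM scaling 2 of 11 were at least 2-fold higher, and SWP73A, at a log2 ratio of 0.60, was not. SWI3C (AT1G21700) had a ratio of 1.73, and the ATPase BRM (AT2G46020) had 86.2 RPM in dcl1-5 and 50.8 RPM in wild type.

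Of 7 genes reported, mostly in leaves and seedlings, to be regulated by GIF1 or a GRF or to act with them, 6 had a row and 4 passed the filter, with 1 at least 2-fold higher and 2 lower, against 33.8% and 4.58% of all genes. With TMM scaling the counts were also 1 and 2, against 15.0% and 14.5%. The cytokinin response factor CRF2 (AT4G23750), also named TMO3 as a target of the auxin response factor MONOPTEROS, had 9 reads, or 1.99 RPM, in dcl1-5 and 208 reads, or 37.1 RPM, in wild type, 18.6-fold lower [9.61 to 41.2]. The response regulator ARR4 (AT1G10470) had 3.32 RPM in dcl1-5 and 8.02 RPM in wild type, 2.41-fold lower [1.32 to 4.66]. DREB2A (AT5G05410) had 49.0 RPM in dcl1-5 and 13.7 RPM in wild type, 3.57-fold higher [2.74 to 4.69], while GRF7, which represses it in seedlings, was under the floor in both libraries. HAN (AT3G50870), a GATA factor that acts with GIF1 in cotyledon identity, had 7.98 RPM in dcl1-5 and 10.2 RPM in wild type, a ratio of 0.785 [0.502 to 1.21], or 0.493 [0.315 to 0.761] with TMM scaling.

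Of 7 organ growth and cell division genes, 4 passed the filter, with 2 at least 2-fold higher and 0 lower, against 33.8% and 4.58% of all genes, and a median log2 ratio of 0.71. With TMM scaling 0 were at least 2-fold higher and 1, KN, was lower, against 15.0% and 14.5%. The cyclins CYCB1;1 (AT4G37490) and CYCD3;1 (AT4G34160) were 2.22-fold and 2.44-fold higher in dcl1-5 on the authors' scale. KN (AT1G08560), the cytokinesis syntaxin KNOLLE, had 236.6 RPM in dcl1-5 and 301.3 RPM in wild type. Its log2 ratio was -0.35 on the authors' scale and -1.02 with TMM. The tenth of genes with mean RPM similar to KN had a median of 0.06 on the authors' scale. KLU (AT1G13710), a cytochrome P450 that promotes organ growth, had 1448 RPM in dcl1-5 and 1173 RPM in wild type.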

How the data were processed

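The deposited table gives RPM for 2 libraries, 1 dcl1-5 and 1 wild type, with groups taken from the strain labels. Per the series' design text, the authors mapped reads to TAIR9 with Bowtie with at most 2 mismatches over a seed of 25 nt, retained unique hits and counted the strand antisense to annotated genes, since the amplification yields antisense RNA. For Bowtie, no version is stated in the sources used here. Each RPM value equalled a whole number of reads (tolerance 0.01 reads, 100% of values), so reads were recovered. No count test was run, since 1 library per genotype leaves no replicate error.

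Log2 ratios used a pseudocount of 1 RPM, which understates changes of low genes, and a mean of at least 5 RPM. Printed folds are plain RPM ratios. TMM factors came from edgeR 4.0.16 in R 4.3.3, and the rest from Python 3.11.15 with scipy 1.17.1, tested on simulated data. Sequences and transcript lengths were read by locus from TAIR10.1, whose coordinates are printed for the sequences alone; 20509 of 20612 loci matched its annotation. The named genes are all members, up to 4 genes per pathway list with the largest log2 ratio, and fixed single genes. BRM, the marker genes, GRF4 and GRF8 were named after their values were seen. Members and lists were chosen with earlier results of these data known. Alternatives were other pseudocounts, filters, scalings, a 4-fold limit and subtraction of the shift of all genes; sums without GRF2 were added after the values were seen.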

Additional observations from a re-analysis of the deposited data

How the results depend on the processing

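The 3 members at least 2-fold lower in dcl1-5 remained 3 with pseudocounts of 0.1 and 5 RPM, with no filter, with equal totals, with either TMM or median-of-ratios scaling and net of the median of all genes. There were 2 at a mean of at least 20 RPM, where GIF3 is under the filter, and there was 1, GRF2, at a 4-fold limit. The 1 member at least 2-fold higher, GRF1, became 0 with a pseudocount of 5 RPM, median-of-ratios scaling, TMM, the 4-fold limit and subtraction of the shift. The median log2 ratio of the members, -0.21 in the main setting, ranged from -0.84 to 0.11. It was lowest net of the shift and changed sign only at a mean of at least 20 RPM, where 5 members remained. GRF2 ranged from -2.83 to -1.99 on the log2 scale over 6 alternatives, GRF3 from -1.98 to -1.11, GIF3 from -2.10 to -1.05 and GRF1 from 0.48 to 1.17, each with 1 sign. GIF1 (-0.55 to 0.15), GIF2 (-0.41 to 0.29) and GRF5 (-0.15 to 1.11) changed sign. Leaving GRF2 out of the GRF sum, chosen after seeing the data, moved the ratio of dcl1-5 over wild type to 0.972, against 0.490 with it, and the GRF reads per GIF read to 0.310 in dcl1-5 and 0.333 in wild type. With TMM scaling the ratio of the GRF sum was 0.610 without GRF2 and 0.307 with it. No paired analysis was possible because each genotype has 1 library. Depth limits GRF5, GRF7, GRF8 and GRF4, which had 0 to 20 reads per library.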

Other observations

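The genes next to the members on the chromosome, by TAIR10.1 gene order, were looked up after the members' values were known. WVD2 (AT5G28646), a microtubule-associated protein gene beside GIF1, had 0 reads in dcl1-5 and 60 in wild type, or 0 and 10.7 RPM. With the dcl1-5 level of WVD2 set to the floor of 3 reads, that is 16.1-fold lower. AT2G36410, beside GRF3, had 5.10 RPM in dcl1-5 and 13.5 RPM in wild type, 2.66-fold lower, and SBE2.1 (AT2G36390), on the other side of GRF3, had 41.0 RPM in dcl1-5 and 15.3 RPM in wild type. ANT (AT4G37750), a growth-promoting AP2-type factor beside GRF2, had 1 read in dcl1-5 and 14 in wild type. The genes beside GIF3 and GRF9 that had a mean of at least 5 RPM were ATOZI1 (AT4G00860) and FLA8 (AT2G45470). ATOZI1 had 264.8 RPM in dcl1-5 and 239.3 RPM in wild type, and FLA8 had 280.9 RPM in dcl1-5 and 273.2 RPM in wild type.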
